A study of Mus musculus with 17 samples.

Results

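Interferon-stimulated genes are transcribed when interferon binds its receptors at the cell surface. The 34 genes described here were taken by name from the count table of the study, which holds 23461 genes, and each of the 34 was found there. All 34 also passed the filter on low counts that left 13721 genes for testing. They comprise 2 sensors of foreign RNA, 4 genes of signal transduction and feedback, 18 antiviral effectors, 7 GTPases of cell-autonomous immunity and 3 genes of antigen processing.

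RNA was sequenced from hepatocytes, the parenchymal cells of the liver, after fluorescence-activated sorting from male mice aged 2 to 3 months. Untreated samples numbered 5 of wild type and 4 of Yap/Taz knockout, and 5 wild type and 3 knockout samples followed CCl4. CCl4 (carbon tetrachloride) is a solvent that hepatocytes convert into a toxic radical. It was given at 1 ug/g in 7 doses spaced by 3 days, and cells were gathered 3 days after the last dose. YAP (gene Yap1) and TAZ (gene Wwtr1) are transcriptional co-activators held in check by the Hippo pathway. The labels give neither the allele nor the Cre or other means used to delete them, and they do not say that each sample came from its own animal, so p values measure the spread between samples, which may be technical.

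In the canonical pathway, type I interferons bind the receptor chains Ifnar1 and Ifnar2, and the kinases Jak1 and Tyk2 then activate a complex that holds Stat2 and Irf9, enters the nucleus and binds interferon-stimulated response elements (ISRE). Type II interferon, Ifng, binds Ifngr1 and Ifngr2 and acts through gamma-activated sites (GAS). Hepatocytes carry both kinds of receptor and produce many antiviral proteins, whereas most interferon in the liver is made by immune cells.

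ISRE and GAS sites are read from promoter sequence, so promoters are shown before the levels. In RefSeq windows of GRCm38.p6 that run from 250 bases before to 50 bases after a gene's start, 27 of the 34 genes could be matched. The ISRE core GAAANNGAAA was searched on both strands and was present in 16 of the 27 genes (59.3%), against 1079 of 27025 genes in the whole table (3.99%). The GAS core TTCNNNGAA, which reads the same on both strands, was present in 7 of 27 (25.9%), against 2582 of 27025 (9.55%), and 5 genes had both. The ISRE core was found in 6 of 6 matched GTPases, 7 of 13 antiviral effectors, 2 of 2 sensors, 1 of 3 transducers and 0 of 3 antigen-processing genes. These counts describe letters and were not tested. The unmatched genes were Parp14, Rtp4, Mx1, Ifi27, Mx2, Usp18 and Iigp1.

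Stretches of 60 bases are shown for 6 of the 7 antiviral effectors that carry the ISRE core, set in capitals. Bst2, with 2 cores, is the one not shown. A core on the other strand reads as its reverse complement, with runs of TTTC. Each is written 5′ to 3′ on the strand of its gene, and overlapping cores run together.
Ifit1: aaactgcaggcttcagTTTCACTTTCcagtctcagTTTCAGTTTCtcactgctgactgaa
Ifit3: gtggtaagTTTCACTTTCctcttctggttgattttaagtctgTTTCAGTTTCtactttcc
Ifit3b: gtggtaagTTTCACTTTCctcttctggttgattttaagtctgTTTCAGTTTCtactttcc
Isg15: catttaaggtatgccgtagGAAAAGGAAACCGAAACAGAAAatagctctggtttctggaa
Rsad2: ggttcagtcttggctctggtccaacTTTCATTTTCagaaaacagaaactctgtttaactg
Oas1a: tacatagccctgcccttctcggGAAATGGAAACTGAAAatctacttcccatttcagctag
In build GRCm38.p6 they lie at chr19:34640769-34640828 (plus strand), chr19:34583365-34583424 (plus), chr19:34607761-34607820 (plus), chr4:156200856-156200915 (minus), chr12:26456538-26456597 (minus) and chr5:120907508-120907567 (minus). The stretches of Ifit3 and Ifit3b were identical letter for letter. The transcripts of these neighbouring paralogs are also alike. Of the 50-base words of Ifit3, 51.2% also occurred in another gene, mostly Ifit3b, and 45.0% of those of Ifit3b did, so counts of these paralogs are uncertain. The same holds for Oas1a, of which 57.6% was shared, mostly with Oas1g.

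The whole windows are shown for Gbp2 (gene at chr3:142620602-142638008) and Oasl1 (gene at chr5:114923240-114937915), the members that passed the test in a comparison below.
Gbp2: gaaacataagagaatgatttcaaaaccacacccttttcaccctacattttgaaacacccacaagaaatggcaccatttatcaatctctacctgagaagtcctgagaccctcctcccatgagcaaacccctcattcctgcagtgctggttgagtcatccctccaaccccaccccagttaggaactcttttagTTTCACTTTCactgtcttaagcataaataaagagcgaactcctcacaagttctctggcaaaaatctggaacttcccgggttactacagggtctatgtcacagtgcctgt
Oasl1: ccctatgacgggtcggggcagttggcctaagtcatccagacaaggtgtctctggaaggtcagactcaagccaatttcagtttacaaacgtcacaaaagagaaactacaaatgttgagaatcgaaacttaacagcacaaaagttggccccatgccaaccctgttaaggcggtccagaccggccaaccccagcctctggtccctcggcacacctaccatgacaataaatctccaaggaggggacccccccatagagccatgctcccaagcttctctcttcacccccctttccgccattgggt
The Gbp2 window spans chr3:142620413-142620712 (plus strand) and holds 1 ISRE core, starting 59 bases before the RefSeq start. The Oasl1 window spans chr5:114922990-114923289 (plus strand) and holds neither core as spelled above, so it has no capitals. That says only that these exact letters are not in this window.

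The libraries held 11266420 to 24775863 counts. The 34 genes together took 0.0589 to 0.1245% of them. Levels of single genes below are CPM, counts brought to the same library total, with library sizes scaled by the trimmed mean of M values (TMM). Summed markers are CPM of unscaled totals. Yap1 stood at 37.4 to 73.6 CPM in wild type and 0.536 to 8.04 CPM in knockout libraries, and Wwtr1 at 9.86 to 23.4 and 1.20 to 7.09 CPM, so both targets followed the labels. Hepatocyte markers (10 of 10 detected, such as Alb, serum albumin) summed to 68888 to 153760 CPM. Mitochondrial transcripts took 1.98 to 34.3% of counts, and they exceeded 30% in wild type untreated replicate 5 and knockout CCl4 replicate 3. Summed markers of macrophages (17 genes, such as Clec4f and C1qa) were 19.6 to 71.3 CPM in untreated and 61.2 to 154 CPM in CCl4 libraries of wild type, and 25.03 to 64.6 CPM in untreated knockout ones. In the 3 libraries of knockout mice given CCl4 they were 180.7, 500.5 and 4459.7 CPM, the last in replicate 3. Of the 17, 12 were at 0 in knockout untreated replicate 2, and none was at 0 over a whole group. The sums of untreated libraries were mostly Mpeg1, with 2879 counts in wild type and 2626 in knockout. Clec4f had 120 and 25 counts there. Tested differences that this library moves most are given with and without it. In such sorted samples, fewer cells of a type and less RNA per cell cannot be told apart.

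Per kilobase of exon, which allows genes to be compared, Bst2 was the most abundant of the 34 over all libraries, at a mean of 138 CPM per kb. Bst2 encodes tetherin, which holds budding virus at the cell surface. Ifi27, a mitochondrial and nuclear-envelope protein, followed at 58.6 CPM per kb, and Iigp1, a GTPase that attacks parasite vacuoles, at 44.9 CPM per kb. The next genes were Ifi35 at 11.1, Igtp at 10.3 and Isg15 at 9.50 CPM per kb. At the other end stood Oasl2 at 0.287, Mx1 at 0.409 and Ifi44 at 0.490 CPM per kb. Mx1 and Mx2 are dynamin-like GTPases that block viral nucleocapsids, and the annotation lists Mx2 as a polymorphic pseudogene.

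**Figure D1:**
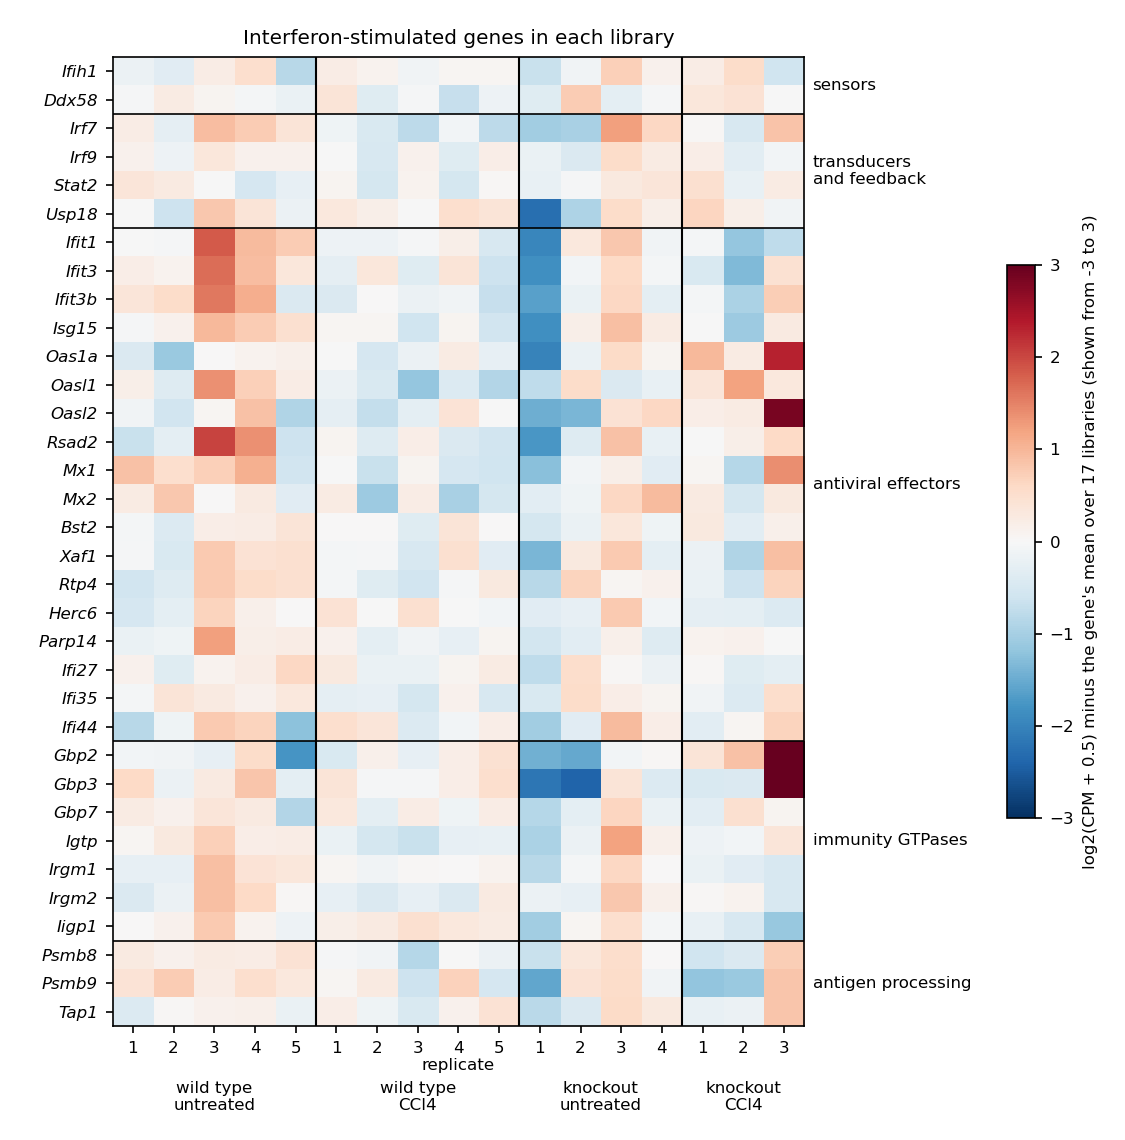
Levels of the 34 genes (rows, by role) in the 17 libraries (columns, by group and replicate), as log2(CPM + 0.5) minus each gene's mean over the libraries. Knockout untreated replicate 1 is blue for nearly every gene and replicate 3 mostly red, whereas the 5 wild type CCl4 libraries are pale.

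The module varied widely between libraries of the same group. Knockout untreated replicate 1 was the lowest of its 4 libraries for 30 of 34 genes (88.2%), against 28.8% of all genes tested, and the highest for 0. Replicate 3 of that group was the highest for 25 of 34 (73.5%), against 22.5% of all genes. All 34 genes were higher in replicate 3 than in replicate 1, by a median of 1.44 on the log2 scale, while 50.7% of all genes tested were. Isg15, a ubiquitin-like modifier, was at 1.45, 7.44, 12.5 and 7.79 CPM in replicates 1 to 4. Usp18, the protease that removes Isg15 and restrains the receptor, was at 1.76, 5.22, 15.5 and 11.8 CPM. Irf7, the factor that amplifies interferon production, was at 13.5, 14.1, 67.5 and 43.8 CPM. All 3 genes were lowest in replicate 1 and highest in replicate 3.

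The exceptions in that group were few. Irf9, Gbp2, Gbp3 and Irgm2 were lowest in replicate 2. Ddx58 (RIG-I, a sensor of viral RNA ends), Oasl1, Rtp4, Ifi27 and Ifi35 were highest in replicate 2, and Stat2, Oasl2, Mx2 and Gbp2 in replicate 4. Among 43 other interferon-stimulated genes tested, which are not among the 34, replicate 1 was lowest or tied for lowest for 27 and replicate 3 highest or tied for 18. Of these, 34 of 43 were higher in replicate 3 than in replicate 1, by a median of 0.75 on the log2 scale. Macrophage markers summed to 42.8 CPM in replicate 1 and 64.6 CPM in replicate 3, mostly from Mpeg1 with 795 and 1147 counts. Plasmacytoid dendritic cell markers (5 genes detected, with Klk1 and Pacsin1 at 0 in this group) summed to 0.588 and 0.466 CPM. Mitochondrial transcripts took 5.68 and 8.87% of counts in replicates 1 and 3. The part of these cells and transcripts in the difference was not tested.

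In wild type untreated livers, replicate 3 was the highest of 5 for 19 of the 34 genes (55.9%), against 18.3% of all genes. Rsad2 (viperin, an antiviral radical enzyme) was at 3.33, 4.42, 24.3, 15.1 and 3.47 CPM in replicates 1 to 5. Ifit1, which binds viral RNA caps, was at 4.94, 4.84, 19.2, 10.1 and 8.82 CPM. Both genes were highest in replicates 3 and 4. The wild type CCl4 libraries lay closest together: the median SD of the 34 genes on the log2 scale was 0.315 there, beside 0.295 for all genes. It was 0.489 in wild type untreated (all genes 0.350), 0.627 in knockout untreated (0.310) and 0.496 in knockout CCl4 libraries (0.420).

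**Figure D2:**
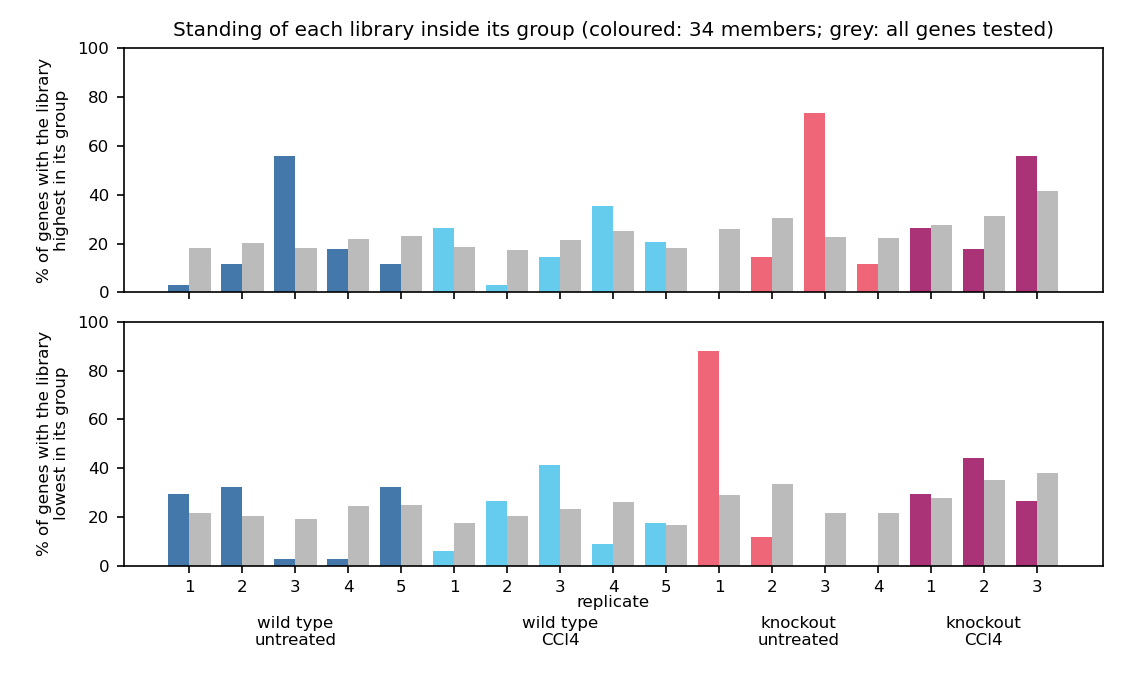
Share of genes for which a library is the highest (top) or lowest (bottom) of its group, for the 34 interferon-stimulated genes (coloured by group) and all genes tested (grey). Knockout untreated replicate 1 is lowest for 88.2% of the 34 genes and replicate 3 highest for 73.5%, and the grey bars lie between 16.6 and 41.5%.

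CCl4 in wild type mice addressed what repeated dosing does to the module when YAP and TAZ are present. No member passed the test in either direction (edgeR's quasi-likelihood test, adjusted p under 0.05), while 0.576% of all genes were called higher and 0.277% lower. At an unadjusted p under 0.05, 7 of 34 members passed, all lower after CCl4, against 14.7% of all genes in either direction. DESeq2 called 1 member, Oasl1, and limma voom called 0, against 3.6% and 0.568% of all genes. The members' median log2 fold change was -0.34, with 9 of 34 above 0, beside -0.01 for all genes. Without wild type untreated replicate 3 the members' median was -0.16. With unscaled library totals it was 0.04, against 0.38 for all genes, so the sign of the median depends on the scaling, while the members lay below the median of all genes under both. Markers of other cells had mostly positive fold changes in the same comparison: 11 of 12 endothelial genes were above 0 (median 2.69, 2 called), 9 of 9 stellate genes (median 1.94, 1 called) and 14 of 17 macrophage genes (median 2.03, 0 called). Endothelial markers summed to 8.52 to 49.0 CPM untreated and 43.1 to 212 CPM after CCl4, and stellate markers to 4.64 to 18.1 and 21.4 to 92.7 CPM. Their part in the members' levels was not tested.

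By role, the antiviral effectors had the lowest median of the groups after CCl4 in wild type, at -0.47 over 18 genes with 3 above 0. Oasl1, an OAS-like protein that restrains Irf7 translation, had a log2 fold change of -1.18 ± 0.34 (SE, adjusted p = 0.124 by edgeR's quasi-likelihood test, and 0.0332 by DESeq2). Ifit3b was at -1.34 ± 0.61, Mx1 at -1.22 ± 0.57 and Ifit1 at -1.07 ± 0.47. Rsad2 was at -1.08 ± 0.56, and without wild type untreated replicate 3 at -0.46. Isg15 averaged 9.42 ± 2.82 CPM untreated (SD, n = 5) and 5.74 ± 1.44 CPM after CCl4 (n = 5).

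Among the transducers, Irf7 averaged 39.2 ± 12.2 CPM untreated and 21.1 ± 5.07 CPM after CCl4, a log2 fold change of -0.90 ± 0.40. Irf9, Stat2 and Usp18 were within 0.21 of 0, with Usp18 at 0.12 ± 0.41. Groups did not overlap for 2 members (5.88%), both lower after CCl4, beside 1.69% of all genes lower and 3.15% higher. The 2 members were Igtp, a GTPase of parasite defence, and Psmb8, a catalytic subunit of the immunoproteasome. Igtp was at 20.3, 23.9, 32.3, 22.4 and 23.0 CPM untreated and 16.8, 13.4, 12.02, 16.4 and 16.7 CPM after CCl4. Psmb8 was at 23.3, 20.8, 22.7, 22.4 and 25.9 CPM untreated and 18.6, 17.7, 10.3, 19.1 and 16.8 CPM after CCl4. Neither passed the test (adjusted p = 0.276 and 0.410 by edgeR). The 95% intervals of 14 of the 34 fold changes lay within 1 log2 unit of 0, and those of 27 spanned 0.

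**Figure D3:**
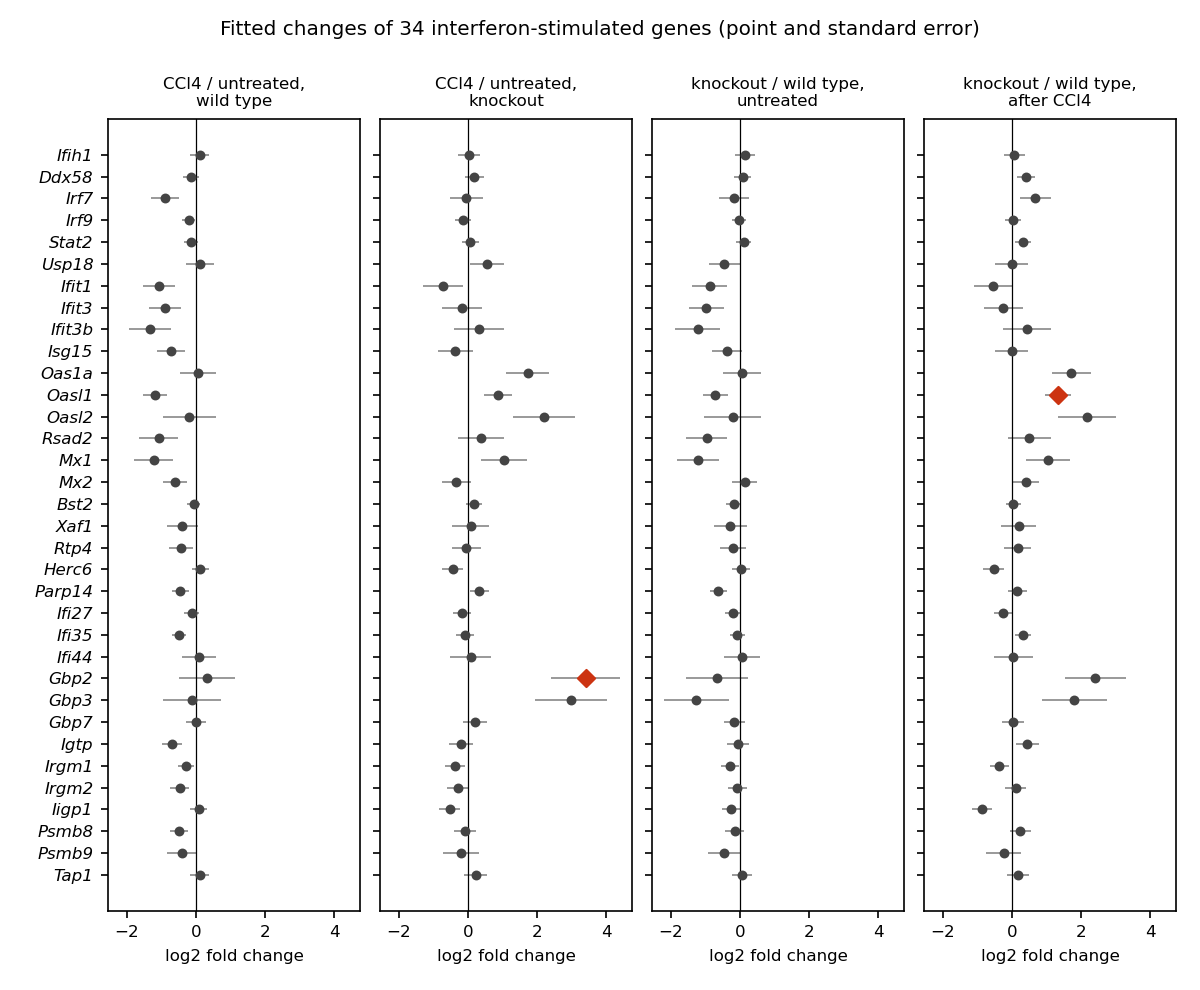
Log2 fold change (point) and standard error (line) of each of the 34 genes in the 4 comparisons between groups. Red diamonds are the 2 calls at an adjusted p under 0.05, Gbp2 for CCl4 in knockout and Oasl1 for knockout against wild type after CCl4.

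CCl4 in knockout mice addressed the same dosing with YAP and TAZ deleted. Injury itself was not measured here, so its extent may differ between genotypes. Gbp2, a guanylate-binding GTPase that coats vacuoles of pathogens, was the 1 member that rose, and 0 fell, while 12.1% of all genes were called higher and 6.96% lower. Its level was 0.132, 0.0856, 1.10 and 1.26 CPM in the 4 untreated knockout libraries and 1.73, 2.61 and 16.3 CPM in the 3 CCl4 libraries. The groups did not overlap, as for 14.4% of all genes in that direction, but replicate 3 stood far above the rest. In wild type Gbp2 was at 1.11, 1.08, 0.942, 1.99 and 0 CPM untreated and 0.748, 1.39, 0.928, 1.46 and 1.86 CPM after CCl4. The log2 fold change in knockout was 3.41 ± 1.00 (adjusted p = 0.0240 by edgeR). Without knockout CCl4 replicate 3 it was 1.76 and the call was lost (adjusted p = 0.268 by edgeR). The call was also lost without knockout untreated replicate 1 (adjusted p = 0.0640) or replicate 2 (adjusted p = 0.0610) by edgeR, with 3 and 1 counts of Gbp2 in those libraries. It was lost as well with limma voom (3.22, adjusted p = 0.0680) and with the 2 groups fitted alone (3.44, adjusted p = 0.0845 by edgeR).

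At an unadjusted p under 0.05, 5 of 34 members passed in knockout, against 30.3% of all genes. DESeq2 called 3 (Oas1a, Gbp2 and Gbp3) and limma voom 0, against 21.2% and 16.3% of all genes. Each share of the members lay below that of all genes. The other members near the threshold had their highest value in replicate 3, apart from Oasl1. Gbp3 was at 0.0878, 0, 2.97 and 1.51 CPM untreated and 1.43, 1.47 and 24.6 CPM after CCl4. Oas1a, an enzyme that makes the second messenger of RNase L, was at 0.351, 2.48, 4.62 and 3.10 CPM untreated and 6.16, 3.58 and 16.5 CPM after CCl4. Oasl2 was at 0.132, 0.171, 1.87 and 2.18 CPM untreated and 1.49, 1.57 and 11.97 CPM after CCl4. Without replicate 3, the log2 fold change of Gbp3 went from 2.98 to 0.34, that of Oas1a from 1.72 to 0.89 and that of Oasl2 from 2.20 to 0.51.

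The rest of the module did not move in 1 direction after CCl4 in knockout. The median log2 fold change was 0.05 over 34 genes, with 18 above 0, beside 0.01 for all genes. It was -0.17 without knockout CCl4 replicate 3 and -0.22 without knockout untreated replicate 1. Isg15 averaged 7.30 ± 4.54 CPM untreated (SD, n = 4) and 5.71 ± 2.63 CPM after CCl4 (n = 3). Ifit1 averaged 5.25 ± 3.43 and 3.17 ± 1.45 CPM, and Tap1, which carries peptides to MHC class I, 19.0 ± 8.22 and 22.3 ± 10.2 CPM. Macrophage markers were called higher for 17 of 17 genes in this comparison, endothelial markers for 11 of 12 and stellate cell markers for 8 of 9 tested. Of 10 hepatocyte markers, 0 were called higher and 3 lower, with a median log2 fold change of -0.56. These marker calls are from the fit that includes knockout CCl4 replicate 3. Endothelial markers summed to 134 to 804 CPM in knockout CCl4 libraries and 22.5 to 34.7 CPM in knockout untreated ones. The part of these cells in the levels of Gbp2, Gbp3, Oas1a and Oasl2 was not tested.

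**Figure D4:**
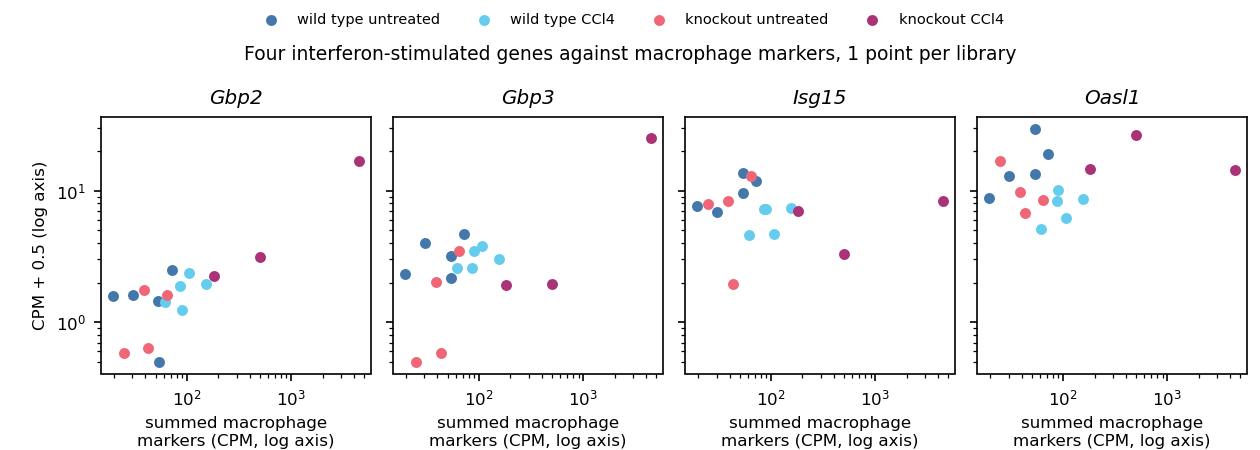
Level of Gbp2, Gbp3, Isg15 and Oasl1 (CPM + 0.5) against summed macrophage markers (CPM of unscaled totals), 1 point per library, both axes logarithmic. Knockout CCl4 replicate 3, at 4459.7 CPM of macrophage markers, has the highest Gbp2 and Gbp3 (16.3 and 24.6 CPM), whereas its Isg15 and Oasl1 (7.88 and 13.8 CPM) lie among the other libraries.

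Knockout and wild type were compared in untreated mice to ask how the resting level of the module differed by genotype. No member passed the test, while 0.583% of all genes were called higher and 0.35% lower by edgeR. At an unadjusted p under 0.05, 1 of 34 passed, Parp14, an ADP-ribosyltransferase, against 8.77% of all genes. DESeq2 and limma voom called 0 members, against 2.39% and 0.882% of all genes. Parp14 was at 21.0, 21.9, 56.7, 27.0 and 28.0 CPM in wild type and 16.2, 19.3, 26.8 and 18.2 CPM in knockout, a log2 fold change of -0.62 ± 0.25. The wild type and knockout values overlapped.

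The median of the members was -0.20 in that comparison, with 8 of 34 above 0, beside -0.01 for all genes. It depended on single libraries: it was 0.03 without knockout untreated replicate 1 and -0.55 without replicate 3 of that group. The 95% intervals of 33 of the 34 members spanned 0, and those of 17 lay within 1 log2 unit of 0. Stat2 (0.11 ± 0.22), Bst2 (-0.19 ± 0.20) and Irf9 (-0.03 ± 0.21) were among the narrowest. For Ifit1 (-0.88 ± 0.51) and Ifit3b (-1.22 ± 0.65) the intervals ran from -1.95 to 0.19 and from -2.60 to 0.16.

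Knockout and wild type were also compared after CCl4. Oasl1 was higher in the knockout and was the 1 member called, with 0 called lower, while 7.62% of all genes were called higher and 4.21% lower by edgeR. Oasl1 was at 14.2, 26.0 and 13.8 CPM in the 3 knockout samples given CCl4 and 9.60, 7.88, 4.64, 8.10 and 5.73 CPM in the 5 wild type ones. Every knockout value lay above every wild type value. The log2 fold change was 1.33 ± 0.38 (adjusted p = 0.0311 by edgeR). In untreated mice Oasl1 was at 12.5, 8.25, 29.1, 18.4 and 12.9 CPM in wild type and 6.28, 16.3, 7.97 and 9.30 CPM in knockout libraries, where the groups overlapped. Its CCl4 effect was -1.18 in wild type and 0.86 in knockout. The difference of these effects was 2.04 ± 0.52 on the log2 scale (adjusted p = 0.0625 by edgeR and 0.00887 by DESeq2).

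The Oasl1 difference was as large without the library with most macrophage markers, though it no longer passed. Without knockout CCl4 replicate 3 the log2 fold change was 1.49, with an adjusted p of 0.0659 by edgeR, and the highest value, 26.0 CPM, was in replicate 2, where macrophage markers summed to 500.5 CPM. Without replicate 2 it was 0.96 (adjusted p = 0.160). Leaving out wild type CCl4 replicate 2, 3 or 5 gave 1.37, 1.21 and 1.26 (adjusted p = 0.0574, 0.0728 and 0.0668 by edgeR). With the replicate number as a block it was 1.22 (adjusted p = 0.111), and with unscaled totals 1.34 (adjusted p = 0.0560).

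Iigp1 went the other way and was near the threshold. It was at 213, 179 and 113 CPM in knockout mice given CCl4 and 279.6, 301, 344, 308 and 296 CPM in wild type ones, with no overlap. Untreated, it was at 249.5, 269.7, 428, 268 and 223 CPM in wild type and 120.2, 260.2, 351 and 239 CPM in knockout libraries. The log2 fold change after CCl4 was -0.86 ± 0.29 (adjusted p = 0.0666 by edgeR, 0.0290 by DESeq2 and 0.0498 by limma voom). Without knockout CCl4 replicate 3 it was -0.64 (adjusted p = 0.306 by edgeR).

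At an unadjusted p under 0.05, 5 of 34 members passed in this comparison, against 25.9% of all genes. DESeq2 called 4 (Oas1a, Oasl1, Gbp2 and Iigp1) and limma voom 2 (Oasl1 and Iigp1), against 15.2% and 12% of all genes. Groups did not overlap for 3 members that were higher in knockout (Oas1a, Oasl1 and Igtp) and 3 that were lower (Herc6, Irgm1 and Iigp1), or 8.82% each, beside 10.1% and 7.97% of all genes. The median was 0.17, with 25 of 34 above 0, beside 0.04 for all genes, and without knockout CCl4 replicate 3 it was -0.005.

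The other abundant members were not called in any comparison. After CCl4, Bst2 was at 122, 123, 95.3, 159 and 122 CPM in wild type and 149, 97.98 and 136 CPM in knockout. Untreated, Bst2 was at 117, 91.4, 141, 141 and 159 CPM in wild type and 84.3, 106, 154 and 112 CPM in knockout. Its fold changes lay between -0.19 and 0.16 on the log2 scale in the 4 comparisons between groups. Ifi27 was at 91.8, 65.4, 90.1, 98.02 and 128 CPM in untreated wild type libraries and 103, 73.1, 73.5, 88.1 and 99.98 CPM after CCl4 in that genotype. In knockout, Ifi27 was at 49.0, 122, 86.2 and 74.5 CPM untreated and 86.5, 64.7 and 68.8 CPM after CCl4. The groups overlapped for both genes.

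Stat2, a subunit of the ISRE-binding complex, was at 67.1, 63.0, 52.1, 36.9 and 44.1 CPM in untreated wild type libraries and 55.6, 36.1, 56.4, 35.9 and 53.8 CPM in wild type after CCl4. In knockout, Stat2 was at 44.9, 50.9, 63.9 and 67.6 CPM untreated and 72.8, 44.6 and 61.7 CPM after CCl4. All groups of Stat2 overlapped. Irgm1, a GTPase that regulates the other immunity-related GTPases, was at 35.4, 35.6, 80.0, 56.7 and 53.6 CPM in untreated wild type libraries and 44.0, 39.0, 43.5, 42.9 and 45.4 CPM in wild type after CCl4. In knockout, Irgm1 was at 23.6, 40.5, 65.6 and 42.8 CPM untreated and 36.7, 33.3 and 30.2 CPM after CCl4. The knockout CCl4 values lay below the wild type CCl4 ones, with a log2 fold change of -0.36 ± 0.28 that did not pass.

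Ifih1 (MDA5), a sensor of long double-stranded RNA, was at 30.8, 27.3, 40.6, 49.6 and 19.4 CPM in untreated wild type libraries and 40.4, 37.3, 32.4, 35.9 and 35.8 CPM in wild type after CCl4. In knockout, Ifih1 was at 21.7, 32.3, 56.8 and 38.2 CPM untreated and 40.5, 51.1 and 22.8 CPM after CCl4. The other sensor, Ddx58, averaged 24.5 ± 2.96, 22.2 ± 6.29, 25.9 ± 10.5 and 29.3 ± 4.57 CPM in the same 4 groups (SD, n = 5, 5, 4 and 3). Neither sensor was called in any comparison.

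**Figure D5:**
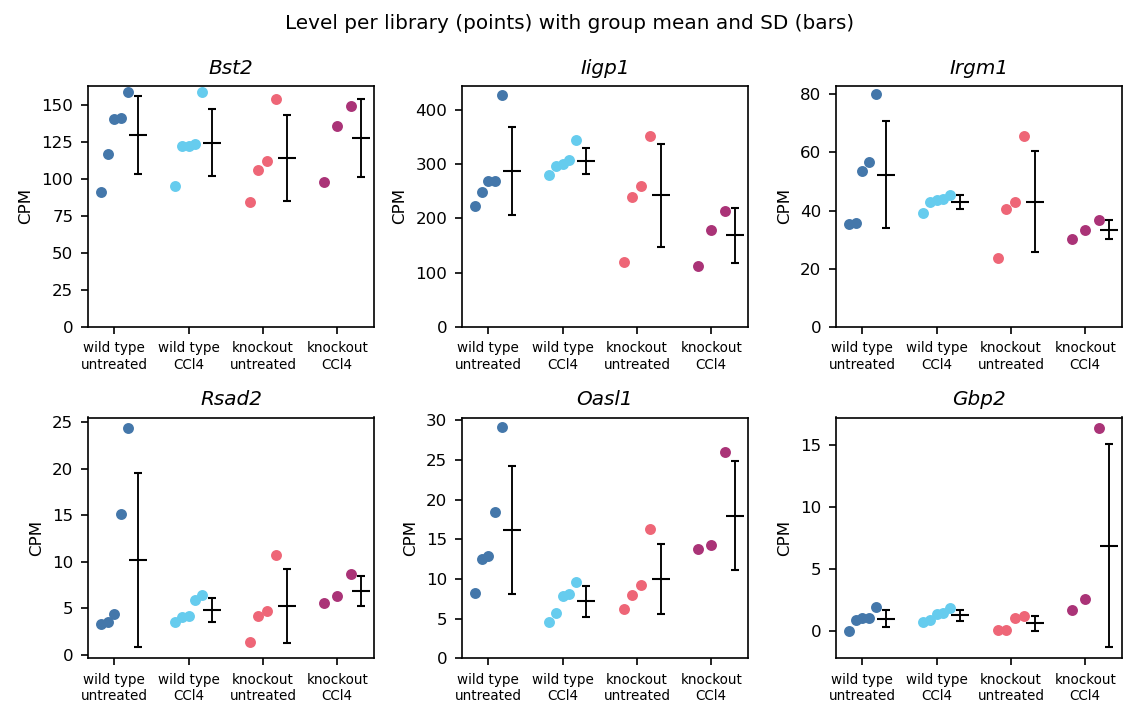
CPM of Bst2, Iigp1, Irgm1, Rsad2, Oasl1 and Gbp2 in each library (points) by group, with group mean and SD (black bars). Oasl1 and Iigp1 do not overlap between the CCl4 groups of the 2 genotypes, Bst2 overlaps throughout, and Gbp2 has 1 high library at 16.3 CPM.

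The difference of the CCl4 effects between genotypes gave no called member, while 0.794% of all genes were called higher and 0.299% lower by edgeR. At an unadjusted p under 0.05, 4 of 34 members passed (Oasl1, Mx1, Gbp2 and Gbp3), all with a more positive CCl4 effect in knockout, against 17.1% of all genes. DESeq2 called 1, Oasl1, and limma voom 0, against 5.71% and 0.0656% of all genes. The median difference was 0.36, with 28 of 34 above 0, beside 0.04 for all genes. It was 0.19 without knockout CCl4 replicate 3, 0.13 without knockout untreated replicate 1 and 0.28 without wild type untreated replicate 3. Mx1 averaged 2.28 ± 0.982 and 0.969 ± 0.371 CPM in untreated and CCl4-treated wild type libraries and 0.980 ± 0.541 and 2.04 ± 1.96 CPM in knockout ones. Its difference of effects was 2.27 ± 0.88 (adjusted p = 0.195 by edgeR), and 1.15 without knockout CCl4 replicate 3.

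The pathway around the module was read from lists of ligands, receptors, inducers, transcription factors and other interferon-stimulated genes. Of 101 genes listed, 81 were found in the table and 72 were tested. Of 20 ligands, 2 could be read and the others were not analysed here. Ifng had 5 counts over all 17 libraries, 1 in knockout untreated replicate 3 and 4 in knockout CCl4 replicate 3. Ifnk, a type I interferon, had 3, of which 2 were in knockout untreated replicate 1 and 1 in wild type CCl4 replicate 5. Neither ligand had enough counts to be tested.

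Of the receptor chains, Ifngr1 rose after CCl4 in knockout. It was at 10.7, 7.62, 7.91 and 7.96 CPM untreated and 14.5, 35.0 and 60.4 CPM after CCl4, a log2 fold change of 2.09 ± 0.35 (adjusted p = 8.66e-04 by edgeR). Without knockout CCl4 replicate 3 the Ifngr1 rise was 1.53 (adjusted p = 0.00592). In wild type Ifngr1 was at 7.06, 9.59, 7.47, 7.22 and 10.99 CPM untreated and 9.41, 17.1, 11.2, 9.76 and 15.4 CPM after CCl4 (0.57 ± 0.29, adjusted p = 0.389 by edgeR). It was higher in knockout than in wild type after CCl4, by 1.54 ± 0.32 (adjusted p = 0.00634 by edgeR), and without replicate 3 by 0.98 (adjusted p = 0.0948). Il10rb, the shared chain of the type III receptor, also rose in knockout, by 1.96 ± 0.65 (adjusted p = 0.0432 by edgeR). It was at 3.35, 5.61 and 36.2 CPM after CCl4, and its fold change was 0.23 without replicate 3.

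For the chains of the type I receptor, Ifnar1 averaged 27.9 ± 3.59, 31.8 ± 7.57, 26.4 ± 2.28 and 34.4 ± 10.3 CPM without and with CCl4 in wild type, then without and with it in knockout (SD, n = 5, 5, 4 and 3). Ifnar2 averaged 63.4 ± 4.05, 49.6 ± 5.74, 62.0 ± 11.6 and 45.7 ± 7.96 CPM in the same order, with the largest fold change of -0.44 ± 0.16 for CCl4 in knockout (adjusted p = 0.0741 by edgeR, and 0.0413 at -0.58 without knockout CCl4 replicate 3). Ifngr2 averaged 13.9 ± 4.07, 19.3 ± 6.04, 16.7 ± 3.50 and 21.2 ± 2.26 CPM. Neither Ifnar chain nor Ifngr2 passed in any of the 5 comparisons. Ifnlr1, the specific chain of the type III receptor, had too few counts to be tested, with levels from 0 to 0.63 CPM.

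Irf1, a factor induced through GAS sites, averaged 18.5 ± 4.81, 17.03 ± 3.68, 22.6 ± 9.06 and 37.2 ± 28.1 CPM in the 4 groups, in the same order. It was at 23.2, 18.9 and 69.6 CPM in knockout after CCl4, the last in replicate 3, and did not pass against wild type CCl4 (1.12 ± 0.39, adjusted p = 0.0718 by edgeR). Without replicate 3 the Irf1 difference was 0.31 (adjusted p = 0.734).

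By the count over all lists, CCl4 in knockout left 16 of 72 pathway genes higher and 2 lower, against 12.1% and 6.96% of all genes. After CCl4, 10 were higher and 1 lower in knockout than in wild type, against 7.62% and 4.21%. In each of the remaining 3 comparisons edgeR called 0 pathway genes. Without knockout CCl4 replicate 3 the counts were 6 higher and 4 lower for CCl4 in knockout, and 0 and 0 for knockout against wild type after CCl4. Of 14239 genes in that fit, 1666 were called for CCl4 in knockout, 1073 of them higher. For knockout against wild type after CCl4, 418 were called, 249 of them higher. Irf8, a factor of myeloid cells, was at 4.07, 8.80 and 46.6 CPM in knockout mice given CCl4 and 1.80, 0.770, 0.769 and 1.93 CPM in knockout untreated ones (3.89 ± 0.73, adjusted p = 0.00172 by edgeR, and 2.28 with 0.0213 without replicate 3). Slfn2, a Schlafen gene of lymphoid and myeloid cells, was at 0.957, 1.90 and 45.9 CPM after CCl4 and had 2 counts in all 4 untreated knockout libraries. In wild type Irf8 was at 0.807 to 2.39 CPM untreated and 0.821 to 5.57 CPM after CCl4, and was not called. Both genes were highest in replicate 3, the library with most macrophage markers. Over knockout CCl4 replicates 1 to 3, B cell markers summed to 0.272, 0.743 and 10.1 CPM and neutrophil markers to 0.136, 0.325 and 9.20 CPM. T and NK cell markers summed to 0.816, 1.21 and 5.61 CPM, and stellate markers to 95.4, 138 and 234 CPM. Hepatocyte markers were lowest in replicate 3, at 86975 CPM, and biliary markers were highest in replicate 1. The part of these cells in the levels of replicate 3 was not tested.

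The other pathway genes with the smallest adjusted p were also highest in that library. Oas2, an OAS enzyme, was at 1.43, 0.572 and 14.2 CPM in knockout CCl4 libraries. Sp100, a nuclear body protein, was at 2.51, 2.11 and 17.1 CPM, and Epsti1 at 0.359, 1.18 and 9.22 CPM with 0 counts in the untreated knockout libraries. Ifi204 and Ifi203, of the family of DNA-binding IFI200 proteins, were at 1.49, 1.07 and 18.2 CPM and at 4.13, 2.54 and 22.7 CPM. Sting1, the adaptor of cytosolic DNA sensing, was at 0.897, 0.787 and 11.3 CPM. None of these genes, Slfn2 included, was called for CCl4 in wild type. There Sp100 ranged from 0 to 0.503 CPM untreated and 0.882 to 2.93 CPM after CCl4. Slfn2 ranged from 0 to 0.145 and 0.125 to 0.585 CPM, and Oas2 from 0 to 0.334 and 0.0357 to 0.503 CPM. Sting1 ranged from 0 to 0.295 and 0 to 0.683 CPM. Ifi204 had 0 to 4 counts untreated and 6 to 46 after CCl4. Ifi203 had 2 to 11 and 10 to 45, and Epsti1 0 to 9 and 1 to 5. Without replicate 3, Slfn2, Oas2, Sp100 and Epsti1 passed for CCl4 in knockout (adjusted p = 0.00844, 0.0348, 0.0365 and 0.0210 by edgeR), with Sp100 at 2.69 on the log2 scale instead of 4.32. Fitted folds are not given for Slfn2, Oas2 and Epsti1, which had at most 3 counts in all untreated knockout libraries. Ifi203, Ifi204 and Sting1 lost the call, at 2.25, 3.52 and 3.40 on the log2 scale instead of 3.79, 5.95 and 5.74 (adjusted p = 0.0759, 0.0709 and 0.0818 by edgeR). Untreated knockout libraries held 0, 0, 1 and 5 counts of Ifi204 and 3, 0, 1 and 1 of Sting1, so their folds rest on few counts. Against wild type after CCl4, none of these 7 genes passed without replicate 3 (adjusted p from 0.250 to 0.890 by edgeR).

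The 2 pathway genes that fell, named after their values were seen, were abundant in hepatocyte libraries. Apol9b, an apolipoprotein L gene, was at 47.3, 75.7, 120 and 101 CPM in knockout untreated and 50.1, 25.9 and 31.2 CPM in knockout CCl4 libraries, a log2 fold change of -1.27 ± 0.30 (adjusted p = 0.00760 by edgeR). Apol9b was also lower in knockout than in wild type after CCl4, by -1.22 ± 0.29 (adjusted p = 0.0131), where wild type values were 101, 73.0, 69.9, 104 and 69.5 CPM. Irf2, a repressor that competes with Irf1, was at 68.4, 94.3, 71.5 and 88.2 CPM untreated and 60.5, 44.1 and 32.7 CPM after CCl4 in knockout (-0.82 ± 0.19, adjusted p = 0.00708 by edgeR). Without knockout CCl4 replicate 3 both still passed for CCl4 in knockout, at -1.18 and -0.62 (adjusted p = 0.0406 and 0.0413 by edgeR). Against wild type after CCl4, 0 pathway genes were called lower without that replicate, so Apol9b lost its call there.

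The antigen-processing genes are induced by both types of interferon. Psmb9, another immunoproteasome subunit, averaged 14.6 ± 2.22, 10.99 ± 4.36, 10.7 ± 5.60 and 9.36 ± 8.47 CPM without and with CCl4 in wild type, then without and with it in knockout. In the last group it was at 4.36, 4.58 and 19.1 CPM, and Psmb8 at 12.6, 13.9 and 32.2 CPM. Tap1 was at 16.1, 16.7 and 34.03 CPM there. All 3 genes were highest in replicate 3, and none was called. Without it, the log2 fold changes for CCl4 in knockout were -0.64 for Psmb8, -1.25 for Psmb9 and -0.21 for Tap1 (adjusted p = 0.165, 0.117 and 0.748 by edgeR). Psmb9 and Tap1 overlap on opposite strands in the annotation, and Igtp and Irgm2 overlap on the same strand, so without the counting rule reads could be shared between them.

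Usp18, Irf9, Xaf1, Rtp4, Herc6, Ifi35, Ifi44, Mx2, Gbp7 and Irgm2 were not called by edgeR at an adjusted p under 0.05 in any of the 5 comparisons. Xaf1, a pro-apoptotic factor, averaged 4.56 ± 1.57, 3.48 ± 1.10, 3.77 ± 2.35 and 4.02 ± 2.82 CPM in the 4 groups, and Rtp4, a receptor chaperone, 8.31 ± 3.38, 6.22 ± 1.53, 7.28 ± 3.04 and 7.04 ± 3.55 CPM. Herc6, the ligase that attaches Isg15 in mice, was at 8.31, 8.15 and 7.48 CPM in knockout CCl4 libraries and 9.56 to 14.2 CPM in wild type ones, without overlap (-0.53 ± 0.29, adjusted p = 0.271 by edgeR). Gbp7 averaged 11.2 ± 3.28, 11.2 ± 2.02, 9.91 ± 4.68 and 11.4 ± 3.30 CPM.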

How the data were processed

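RNA from 17 samples of sorted hepatocytes was sequenced. The authors deposited 1 table of whole-number counts per gene, 1 column per sample. Per the submitters' processing notes, STAR 2.4.1d and mm10 were used, and FastQC, DESeq2, edgeR and limma were named. For the counting tool, strand setting and annotation: not given in the sources used here. All 17 samples were fitted together, with 1 mean per group, by edgeR 4.0.16 (R 4.3.3): TMM scaling, filterByExpr with a minimum count of 10 and total of 15, and a robust quasi-likelihood F test. P values were adjusted by Benjamini-Hochberg over 13721 genes, and genes were called under 0.05. A standard error is the fitted log2 difference divided by the root of its F statistic. Intervals are 95%. Summed markers are CPM of unscaled totals. Per sample depth was 11266420 to 24775863 counts, which limits genes below about 1 CPM. DESeq2 1.42.0, limma voom 3.58.1 and other settings were alternatives. The pipeline was also run on simulated counts with known changes, as a check of the code. That run does not bear on members left uncalled. Replicate columns differed by at least 23.4 chi-square units per gene. Per the labels, equal replicate numbers do not pair samples. Values per sample are given for members called in a comparison and the 6 with the highest mean CPM, for other members where a result turned on them. For the pathway these were receptor chains, Irf1, ligands with counts and the 8 other called genes with the smallest adjusted p. Members and lists were chosen with earlier results of these data known. Gene models are GENCODE M21 on GRCm38, and promoters are from RefSeq. A pathway gene that the rule names is not reported here.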

Additional observations from a re-analysis of the deposited data

Results flagged for a closer look

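In 6 of 102 sets of 4 or 5 replicate values of the 34 genes (5.88%), the highest or lowest library stood apart from the others by Dixon's criterion, which chance alone flags in about 1 of 20. In wild type untreated libraries, Parp14 was at 56.7 CPM in replicate 3 (next 28.0), Iigp1 at 428 CPM in replicate 3 (next 270) and Gbp7 at 5.42 CPM in replicate 5 (next 11.5), the library with 30.8% mitochondrial counts. In knockout untreated libraries, Herc6 was at 17.7 CPM in replicate 3 (next 9.46). In wild type CCl4 libraries, Irgm2 was at 36.5 CPM in replicate 5 (next 25.4) and Psmb8 at 10.3 CPM in replicate 3 (next 16.8). The knockout CCl4 group has 3 libraries and was not examined this way.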

How the results depend on the processing

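The counts of called members were small and moved with single libraries and settings. For CCl4 in knockout (1 higher), unscaled totals gave 2, DESeq2 3, limma voom 0, the 2 groups alone 0, dropping both libraries above 30% mitochondrial counts 0, and leaving out 1 sample at a time 0 to 3. For knockout against wild type after CCl4 (1 higher, 0 lower), higher calls were 0 with unscaled totals, 3 with DESeq2, 0 without the high-mitochondrial libraries and 0 to 2 with 1 sample left out. Lower calls were 1 with DESeq2, with limma voom and with the 2 groups alone, and 0 to 1 with 1 sample left out. For CCl4 in wild type, DESeq2 gave 1 lower, and for the difference of effects DESeq2 gave 1 higher and leaving out 1 sample 0 to 1. The cause was not tested. With the replicate block, CCl4 in knockout gave 2 higher (Gbp2 3.58, Oasl2 2.63, adjusted p = 0.0323 and 0.0226 by edgeR) and knockout after CCl4 gave 0. To compare replicate numbers, each gene's group mean was subtracted, and these deviations were correlated between samples of different groups. The correlations were -0.302 to 0.231 over 22 same-numbered pairs and -0.284 to 0.288 over 85 others. The fold changes of Gbp2 for CCl4 in knockout and of Oasl1 for knockout after CCl4 kept their direction under every setting run, but the members' median did not: for CCl4 in wild type from -0.34 to 0.04 with unscaled totals, for CCl4 in knockout from 0.05 to -0.17 without knockout CCl4 replicate 3 and -0.22 without knockout untreated replicate 1, for knockout untreated from -0.20 to 0.03 without knockout untreated replicate 1, and for knockout after CCl4 from 0.17 to -0.005 without knockout CCl4 replicate 3. Without both high-mitochondrial libraries, which include that replicate, these medians were -0.17 for CCl4 in knockout and -0.0044 for knockout after CCl4. Genes near 1 CPM, such as Gbp2 with 0 to 3 counts in 3 libraries, are limited by depth. Over all genes, calls for CCl4 in wild type went from 117 to 494 with DESeq2, 651 with unscaled totals, 187 without the high-mitochondrial libraries, 78 with limma voom and 49 with the replicate block, and for the difference of effects from 150 to 783 with DESeq2, 28 with unscaled totals, 9 with limma voom and without the high-mitochondrial libraries, and 3 with the replicate block. For knockout untreated they went from 128 to 328 with DESeq2, for CCl4 in knockout from 2610 to 1273 with the 2 groups alone, and for knockout after CCl4 from 1622 to 867 with the replicate block and 555 without the high-mitochondrial libraries. With unscaled totals, 94.8% of calls for CCl4 in wild type and 83.6% in knockout were higher, against 67.5% and 63.4% with TMM scaling. With 1 library left out, calls over all genes ranged from 63 to 179 for CCl4 in wild type (lowest without wild type untreated replicate 3, highest without knockout CCl4 replicate 3), 1666 to 3079 for CCl4 in knockout and 418 to 2216 for knockout after CCl4 (both lowest without knockout CCl4 replicate 3, highest without its replicate 1), and 89 to 152 for knockout untreated. For the difference of effects they ranged from 0 (without wild type untreated 4, wild type CCl4 4 or 5, or knockout untreated 1 or 4) to 867 (without knockout CCl4 1).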
